A study of Mus musculus with 6 samples.

Results

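Axin2, Nkd1, Nkd2, Notum, Dkk1, Znrf3, Rnf43, Lgr5, Sp5 and Tnfrsf19 are genes of the Wnt/beta-catenin pathway that are known to be switched on by it, and most of them in turn restrain it. They were taken by symbol, as the probes whose array annotation names exactly that gene, and all 10 were measured, by 13 probes, among 22180 genes with a symbol on the array. Expression was measured with Affymetrix Mouse Gene 2.0 ST arrays in 2 states of EB3 cells: as epiblast-like cells (EpiLC), a culture state close to the epiblast after implantation, and as the mouse embryonic stem cells (mESC) they were made from. EpiLC had been induced over 2 days in N2B27 medium containing Activin A (20 ng/ml) and bFGF (12 ng/ml), and mESC grew in N2B27 with LIF and BMP4. Each state gave 3 cultures: one with 3 µM CHIR99021 (CHIR, which blocks the kinase GSK3) together with 1 µM PD0325901 (PD, which blocks MEK, the kinase that activates ERK), one with 3 µM CHIR alone, and one untreated, with 24 hours of treatment. PD was never given without CHIR, all cells descend from the single EB3 line, and the labels do not place the 24 hours within the induction.

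Each of the 6 combinations was 1 array, so a difference between 2 arrays has neither an error nor a test. Values are linear intensities normalized by the authors, with 16 as the lowest value on every array and array medians of 60.5 to 65.2. Differences are given on the log2 scale, on which 1 is a 2-fold difference, and differences of dim genes are compressed by the floor of 16. Of the 10 genes, 1, 3 and 6 lay below the array's median gene in EpiLC with CHIR and PD, with CHIR and untreated, and 3, 4 and 5 in mESC with CHIR and PD, with CHIR and untreated. The levels of the 10 genes are not compared with each other, because probes differ in brightness. The median gene serves only as a mark of dim values.

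The states carried the markers of their labels in the untreated cultures. The summed intensity of 4 EpiLC markers (Fgf5, Otx2, Pou3f1, Dnmt3b) was 7669 in untreated EpiLC and 2895 in untreated mESC, and that of 6 naive markers (Esrrb, Tfcp2l1, Klf4, Nr0b1, Zfp42, Tbx3) was 531 in untreated EpiLC and 6206 in untreated mESC. With treatment the sums of the EpiLC markers lay closer between the states. They were 1032 and 2482 in EpiLC with CHIR and PD and with CHIR and 949 and 1445 in mESC with CHIR and PD and with CHIR, all below untreated mESC. The sums lean on the bright Dnmt3b, which read 1279 in EpiLC and 1289 in mESC with CHIR. Gene by gene, all 4 were at least 2-fold higher in EpiLC when untreated (median difference 1.73). With CHIR 2 of the 4 were, Fgf5 (4.44) and Otx2 (2.46), with a median of 1.71. With both inhibitors 1 of the 4 was, with a median of 0.77. The sums of the naive markers still told the states apart, at 590.0 and 429.8 in EpiLC with CHIR and PD and with CHIR and 8065 and 7247 in mESC with CHIR and PD and with CHIR. The EpiLC array with CHIR stood apart in another list: 5 measured presomitic mesoderm and streak markers (Msgn1, Tbx6, Mixl1, Lhx1, Hes7) summed to 415, 10171 and 462 in EpiLC with CHIR and PD, with CHIR and untreated, and to 295, 568 and 292 in mESC with CHIR and PD, with CHIR and untreated. Msgn1, which marks presomitic mesoderm, read 3768 in EpiLC with CHIR and between 51.4 and 65.2 on the other 5 arrays.

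In the Wnt/beta-catenin pathway, a complex built on Axin and APC holds beta-catenin for phosphorylation by GSK3, which marks it for destruction. When a Wnt ligand binds Frizzled and LRP5/6, or when GSK3 is inhibited, beta-catenin accumulates and drives its target genes with TCF/LEF factors. Several targets feed back at different levels: on the ligand (Notum), on the receptors (Dkk1, Znrf3, Rnf43), on Dishevelled (Nkd1, Nkd2) and on the destruction complex (Axin2). In mouse pluripotent cells, CHIR and PD are the components of the 2i medium that holds embryonic stem cells in the naive state.

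TCF/LEF factors bind a short motif, commonly written as CTTTGAT or CTTTGAA. Promoter sequences from 250 bases before to 50 bases after a transcription start were available from RefSeq (GRCm38.p6) for 7 of the 10 genes, in 9 windows of 300 bases. Notum, Znrf3 and Lgr5 had no entry. The promoters of Sp5, Dkk1 and Tnfrsf19 are shown because they hold a motif, and those of Axin2 and Nkd1 as examples of genes that also stood higher with CHIR but whose windows hold none. Each is written 5′ to 3′ along the gene's strand, with the motif in capitals and the transcription start after the first 250 bases.
Sp5, chr2:70474673-70474972, plus strand: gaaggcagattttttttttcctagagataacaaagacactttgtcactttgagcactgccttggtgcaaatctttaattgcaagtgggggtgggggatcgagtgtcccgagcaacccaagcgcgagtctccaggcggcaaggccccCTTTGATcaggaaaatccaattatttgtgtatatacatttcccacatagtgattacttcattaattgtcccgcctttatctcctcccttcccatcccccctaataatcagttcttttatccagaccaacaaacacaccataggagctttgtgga
Dkk1, chr19:30549447-30549746, minus strand: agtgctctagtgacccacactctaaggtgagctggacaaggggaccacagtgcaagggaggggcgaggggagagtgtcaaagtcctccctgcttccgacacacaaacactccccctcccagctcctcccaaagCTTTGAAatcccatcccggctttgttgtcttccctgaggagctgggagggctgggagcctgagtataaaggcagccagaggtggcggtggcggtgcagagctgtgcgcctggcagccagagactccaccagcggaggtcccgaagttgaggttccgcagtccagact
Tnfrsf19, second annotated start, chr14:61037938-61038237, minus strand: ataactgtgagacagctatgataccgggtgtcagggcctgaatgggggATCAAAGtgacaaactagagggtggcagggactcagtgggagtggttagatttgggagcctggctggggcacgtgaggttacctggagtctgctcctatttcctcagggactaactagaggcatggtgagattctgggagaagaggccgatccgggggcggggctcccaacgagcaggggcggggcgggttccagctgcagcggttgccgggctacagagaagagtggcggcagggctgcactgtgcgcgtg
Axin2, chr11:108920099-108920398, plus strand: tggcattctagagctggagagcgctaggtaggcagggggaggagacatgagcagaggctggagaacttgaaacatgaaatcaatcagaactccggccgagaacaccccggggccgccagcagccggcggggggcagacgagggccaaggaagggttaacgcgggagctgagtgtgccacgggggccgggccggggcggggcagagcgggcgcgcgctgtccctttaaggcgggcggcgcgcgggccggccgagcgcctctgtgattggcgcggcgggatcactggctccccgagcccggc
Nkd1, chr8:88527383-88527682, plus strand: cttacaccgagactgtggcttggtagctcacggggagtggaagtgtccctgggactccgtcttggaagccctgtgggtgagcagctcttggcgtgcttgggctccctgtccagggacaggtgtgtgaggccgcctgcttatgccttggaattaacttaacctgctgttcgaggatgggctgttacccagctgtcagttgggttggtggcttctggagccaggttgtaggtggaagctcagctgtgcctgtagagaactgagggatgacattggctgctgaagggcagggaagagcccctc

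In the Sp5 window CTTTGAT lies at positions -104 to -98 relative to the start, and in the Dkk1 window CTTTGAA lies at -117 to -111. In the second Tnfrsf19 window the motif lies at -202 to -196 on the opposite strand and is printed as ATCAAAG. Searched on both strands, 3 of the 9 windows held a motif. The windows of Rnf43, which also stood higher with CHIR, and of Nkd2 held none and are not shown. Over all 32851 mouse promoter windows of the same length, 3.73% held CTTTGAT, 5.14% held CTTTGAA and 8.65% held either, and a match or its absence says only which letters are in the window.

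Axin2, a scaffold of the destruction complex and a widely used readout of the pathway, was higher on every array with CHIR than on either untreated array. Its intensity, averaged on the log2 scale over 2 probes, was 341, 307 and 165 in EpiLC with CHIR and PD, with CHIR and untreated, and 319, 368 and 182 in mESC with CHIR and PD, with CHIR and untreated. The ranges of the 2 states overlapped. Probe 17257801 read 698, 602 and 285 in EpiLC and 683, 751 and 299 in mESC, in the same order of treatments, and the dimmer probe 17271197 read 167, 156 and 95.1 in EpiLC and 149, 181 and 110.1 in mESC. Both probes thus placed the 4 arrays with CHIR above the 2 without it.

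Nkd1 and Nkd2, Naked cuticle homologues that bind Dishevelled and dampen Wnt signalling, followed different patterns. Nkd1 read 742, 344 and 75.0 in EpiLC with CHIR and PD, with CHIR and untreated, against 44.9, 74.1 and 46.1 in mESC with CHIR and PD, with CHIR and untreated. It was thus far higher in both treated EpiLC cultures than anywhere else, and in mESC its only higher array was that with CHIR alone, which equalled untreated EpiLC to within 1 unit. Nkd2 read 106, 127 and 151 in EpiLC with CHIR and PD, with CHIR and untreated, and 71.3, 76.8 and 66.4 in mESC with CHIR and PD, with CHIR and untreated. All EpiLC arrays lay above all mESC arrays for both genes, with untreated EpiLC the highest array for Nkd2 and the lowest EpiLC array for Nkd1. Among all genes, 12.4% had every EpiLC array above every mESC array.

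The genes for the secreted inhibitors Dkk1 and Notum each had their highest array under different treatments in the 2 states. Dkk1, which binds the co-receptors LRP5 and LRP6, read 101, 559 and 44.5 in EpiLC with CHIR and PD, with CHIR and untreated, and 619.8, 355 and 124 in mESC with CHIR and PD, with CHIR and untreated. The array with CHIR alone was the highest in EpiLC, and the array with CHIR and PD was the highest in mESC. In EpiLC this high array is also the one with the high presomitic and streak markers, whose part in the Dkk1 level was not tested.

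Notum, a secreted enzyme that removes the lipid from Wnt ligands, averaged 178, 65.5 and 50.3 in EpiLC with CHIR and PD, with CHIR and untreated, and 105, 120.0 and 107 in mESC with CHIR and PD, with CHIR and untreated. EpiLC with both inhibitors was the highest array, and the mESC arrays hardly differed. Its 2 probes disagreed. Probe 17273260 read 309.7, 76.3 and 29.5 in EpiLC and 148, 163 and 143 in mESC in that order of treatments, whereas probe 17259443 read 102, 56.2 and 85.8 in EpiLC and 74.5, 88.5 and 80.5 in mESC. For CHIR against untreated in EpiLC the first probe differed by 1.37 and the second by -0.61, so the direction given by the mean rests on probe 17273260. Both probes placed EpiLC with CHIR and PD highest.

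Znrf3 and Rnf43, related membrane ubiquitin ligases that remove Frizzled from the cell surface, had like patterns of moderate size. Znrf3 read 406, 341 and 248 in EpiLC with CHIR and PD, with CHIR and untreated, and 359, 318 and 241 in mESC with CHIR and PD, with CHIR and untreated. Rnf43 read 87.3, 77.3 and 37.7 in EpiLC with CHIR and PD, with CHIR and untreated, and 72.4, 66.7 and 46.9 in mESC with CHIR and PD, with CHIR and untreated. For both genes and in both states the culture with CHIR and PD was the highest, that with CHIR alone the next and the untreated one the lowest, and the states overlapped.

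Lgr5 is a receptor for R-spondins, which protect Frizzled from Znrf3 and Rnf43. It lay below the array's median gene except in mESC with CHIR and PD (81.1, median gene 78.0). Its mean over 2 probes was 42.4, 59.7 and 47.9 in EpiLC with CHIR and PD, with CHIR and untreated, and 81.1, 70.3 and 48.3 in mESC with CHIR and PD, with CHIR and untreated. Probe 17245059 read 29.2, 46.4 and 33.9 in EpiLC and 83.5, 69.6 and 29.2 in mESC, and probe 17237400 read 61.4, 76.6 and 67.8 in EpiLC and 78.7, 71.1 and 79.9 in mESC. The higher level in treated mESC was therefore seen by the first of these probes and not by the second, which read untreated mESC highest.

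**Figure D1:**
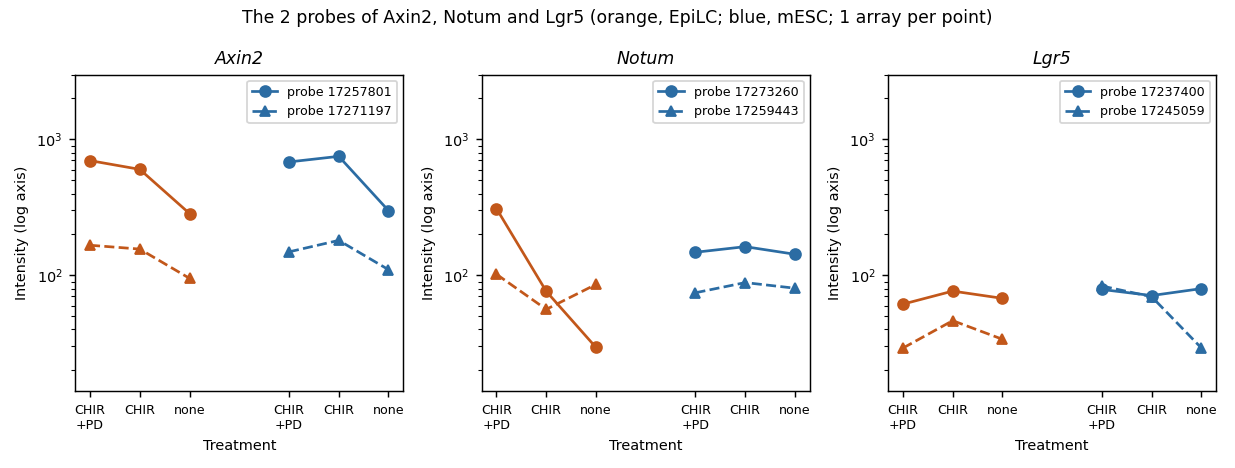
Intensity (log axis) of the 2 probes each of Axin2, Notum and Lgr5 on the 6 arrays, 1 point per array, with lines joining the points of 1 probe within a state. Both Axin2 probes read every array with CHIR above both untreated arrays. The Notum lines cross in EpiLC (309.7 and 102 with CHIR and PD, 29.5 and 85.8 untreated) and the Lgr5 probes are far apart in untreated mESC (29.2 and 79.9).

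Sp5 and Tnfrsf19 are targets of the pathway. Sp5, a zinc-finger transcription factor of the Sp family, read 491, 335 and 45.0 in EpiLC with CHIR and PD, with CHIR and untreated, and 221, 239 and 69.8 in mESC with CHIR and PD, with CHIR and untreated. The 4 arrays with CHIR were all far above both untreated arrays. Tnfrsf19, a receptor of the tumour necrosis factor receptor superfamily also called Troy, read 487, 554 and 221 in EpiLC with CHIR and PD, with CHIR and untreated, and 198, 267 and 129 in mESC with CHIR and PD, with CHIR and untreated. Within each state its highest array was that with CHIR alone, and within each treatment EpiLC was higher than mESC.

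**Figure D2:**
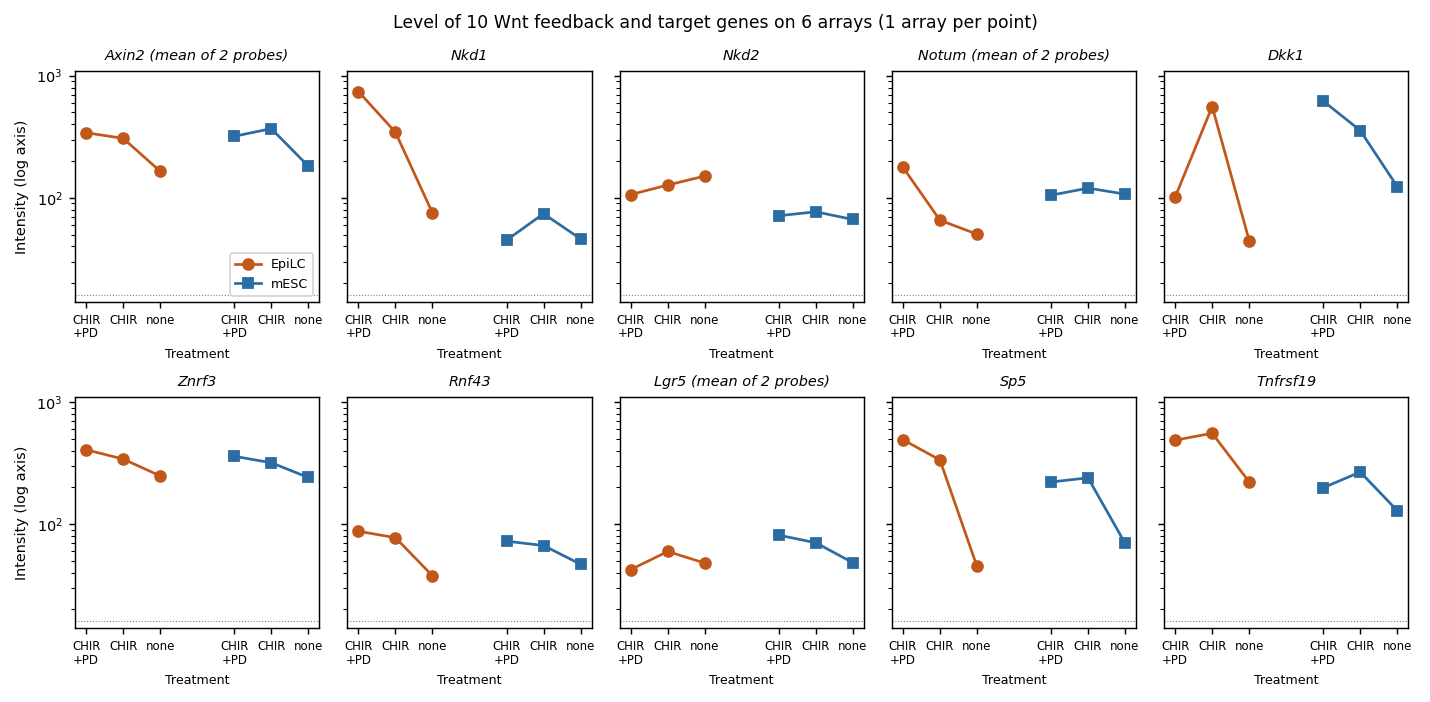
Intensity (log axis) of each of the 10 genes on the 6 arrays, 1 point per array, with treatments along the horizontal axis and the states as separate lines. The dotted line marks the lowest value of the table, 16. Axin2, Znrf3, Rnf43 and Sp5 have all 4 arrays with CHIR above both untreated arrays. Nkd1 reaches 742 in EpiLC with CHIR and PD against 44.9 in mESC with CHIR and PD.

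With CHIR alone, 9 of the 10 genes were higher in both states than in untreated cells of the same state, which holds for 26% of all genes. For Notum and Lgr5 this holds for the mean of 2 probes only. Notum probe 17259443 differed by -0.61 in EpiLC, and Lgr5 probe 17237400 by -0.17 in mESC. Axin2, Znrf3, Rnf43 and Sp5 had all 4 arrays with CHIR above both untreated arrays, as did 6.78% of all genes. At least 2-fold higher with CHIR than untreated in EpiLC were 5 of the 10 genes, against 1.77% of all genes, and in mESC 4 of the 10, against 0.185% of all genes. None of the 10 was 2-fold lower, as 0.929% of all genes were in EpiLC and 0.153% in mESC. The median difference of the 10 genes was 0.97 in EpiLC and 0.61 in mESC, where the median of all genes was -0.03 in EpiLC and 0.00 in mESC.

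The 3 genes at least 2-fold higher in both states were Dkk1, Sp5 and Tnfrsf19, against 0.0992% of all genes. The Dkk1 difference was 3.65 in EpiLC and 1.52 in mESC, that of Sp5 was 2.90 in EpiLC and 1.78 in mESC, and that of Tnfrsf19 was 1.32 in EpiLC and 1.05 in mESC. Nkd1 (2.20) and Rnf43 (1.04) passed 2-fold in EpiLC and stood at 0.68 and 0.51 in mESC, while the mean of Axin2 passed it in mESC (1.02) and stood at 0.90 in EpiLC. Its probe 17257801 passed in both states (1.08 in EpiLC, 1.33 in mESC) and probe 17271197 in neither (0.71 in EpiLC, 0.72 in mESC). Smaller differences were those of Znrf3 (0.46 in EpiLC, 0.40 in mESC), Lgr5 (0.32 in EpiLC, 0.54 in mESC) and Notum (0.38 in EpiLC, 0.16 in mESC). Nkd2 was the exception, at -0.24 in EpiLC and 0.21 in mESC, and 42.5% of all genes had opposite signs in the 2 states. On the same arrays the presomitic and streak sum was 10171 with CHIR and 462 untreated in EpiLC and 568 with CHIR and 292 untreated in mESC. In EpiLC 4 of the 5 markers were at least 2-fold higher, whereas in mESC Mixl1 alone was (321 with CHIR and 33.0 untreated) and the median of the list was -0.05. A sum of 4 primitive endoderm markers (Gata4, Gata6, Sox17, Pdgfra) was 1184 with CHIR and 322 untreated in EpiLC and 330.2 with CHIR and 276 untreated in mESC. In EpiLC, Pdgfra (3.63) and Gata6 (2.85) passed 2-fold, while Gata4 (0.89) and Sox17 (0.55) did not. The part of cells with any of these markers in the EpiLC values was not tested.

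A test was possible only across the states. A linear model of state plus treatment was fitted to the 6 arrays with limma over all genes, so that the error (SE) comes from the departure of the 2 states from a common response. Each gene's error was then moderated by limma toward that of all genes. With Benjamini-Hochberg adjustment 0 of the 10 genes and 0 of 22180 genes (0%) passed an adjusted p of 0.05 for CHIR against untreated. At an unadjusted p under 0.05, limma placed 6 of the 10 genes higher, against 4.15% of all genes (7.27% in both directions). These were Tnfrsf19 (1.19, SE 0.16, limma adjusted p = 0.493), Axin2 (0.96, SE 0.14, limma adjusted p = 0.493), Sp5 (2.34, SE 0.40, limma adjusted p = 0.493), Rnf43 (0.77, SE 0.18), Dkk1 (2.59, SE 0.70) and Znrf3 (0.43, SE 0.12), the last 3 with limma adjusted p-values of 0.581 to 0.620. The estimates of Nkd1 (1.44, SE 0.71), Lgr5 (0.43, SE 0.23) and Notum (0.27, SE 0.44) were within about 2 SE of 0. Without the mESC array with CHIR, Dkk1 passed (3.94, limma adjusted p = 0.0134), in a fit whose CHIR arm is 1 array that is assumed to vary like the other groups.

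**Figure D3:**
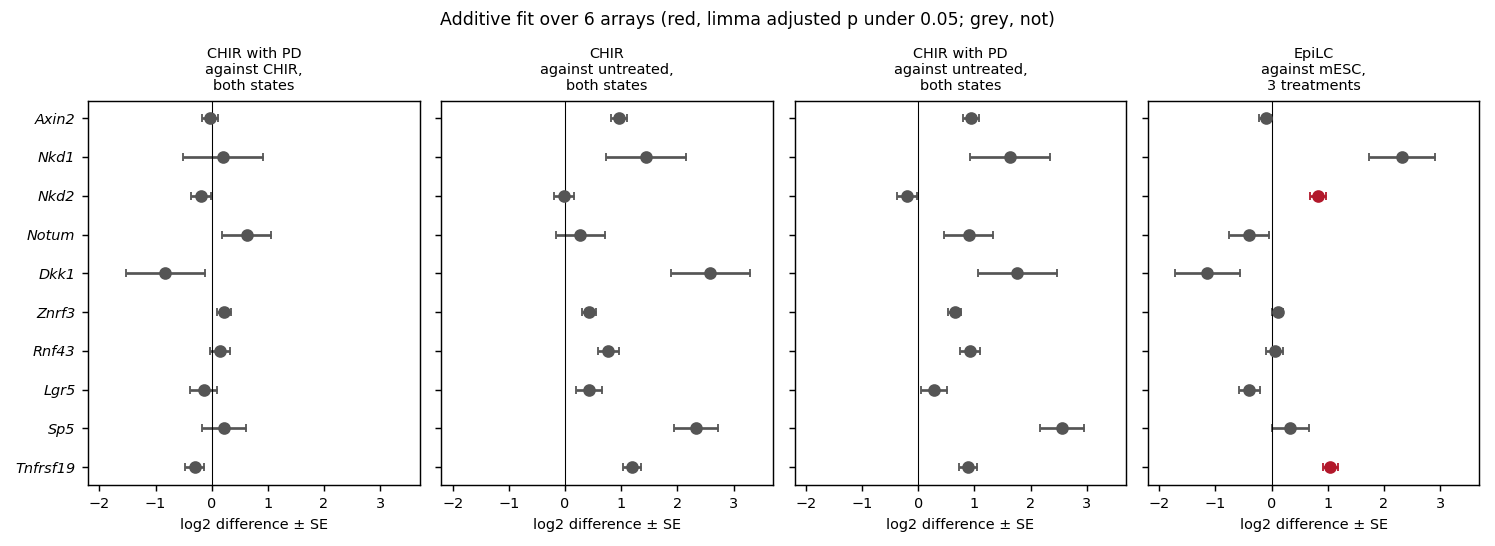
Fitted log2 difference of each of the 10 genes in the 4 comparisons, with bars of 1 SE from the limma fit to 6 arrays. Red points passed the adjusted p of 0.05, which only Tnfrsf19 and Nkd2 did, both in EpiLC against mESC.

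With PD added to CHIR, the 10 genes stood on both sides of CHIR alone. Of the 10, 6 had opposite signs in the 2 states, as did 45.6% of all genes, so this count is close to the background. In EpiLC, Notum (1.44) and Nkd1 (1.11) were at least 2-fold higher with CHIR and PD than with CHIR and Dkk1 (-2.46) was at least 2-fold lower, where 1.04% of all genes were 2-fold higher and 1.01% lower. Notum probe 17273260 differed by 2.02 and probe 17259443 by 0.86, so only the first passed 2-fold. In mESC 0 of the 10 passed 2-fold, where 0.252% of all genes were 2-fold higher and 0.523% lower, and the widest differences were those of Dkk1 (0.80) and Nkd1 (-0.72). The 6 with opposite signs were Dkk1, Nkd1, Notum, Sp5, Lgr5 and Axin2. The median of the 10 genes was 0.16 in EpiLC and -0.11 in mESC, beside -0.02 in EpiLC and -0.01 in mESC for all genes.

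The smaller differences of CHIR with PD against CHIR were 0.55 in EpiLC and -0.11 in mESC for Sp5, 0.15 in EpiLC and -0.21 in mESC for Axin2, and -0.49 in EpiLC and 0.20 in mESC for Lgr5. Znrf3 (0.25 in EpiLC, 0.18 in mESC) and Rnf43 (0.18 in EpiLC, 0.12 in mESC) were slightly higher with PD in both states, and Tnfrsf19 (-0.19 in EpiLC, -0.43 in mESC) and Nkd2 (-0.26 in EpiLC, -0.11 in mESC) slightly lower. In the limma fit over both states 0 of the 10 genes passed the adjusted p of 0.05, where 0.018% of all genes did, and 0 of the 10 passed an unadjusted p of 0.05, where 5.77% of all genes did. The SE was 0.70 for Dkk1 and 0.71 for Nkd1, since the states differ, and 0.12 to 0.44 for the other 8 genes.

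Genes known to depend on ERK were lower with PD. All 8 genes of a list of ERK feedback genes, which are transcribed when ERK is active, were lower with CHIR and PD than with CHIR in both states, 7 of them at least 2-fold in each state. In the limma fit 4 of the 8 fell, namely Spry4 (-3.99), Dusp4 (-3.31), Etv4 (-3.28) and Dusp6 (-2.36) (log2, SE 0.12 to 0.19, limma adjusted p of 0.0025 to 0.0205), and these were the 4 genes of all 22180 that passed. Markers of several cell types also differed between these EpiLC arrays. The presomitic and streak sum was 415 in EpiLC with CHIR and PD and 10171 in EpiLC with CHIR, and the sum of 4 primitive endoderm markers was 311 in EpiLC with CHIR and PD and 1184 in EpiLC with CHIR, with 3 of the 4 at least 2-fold lower. The 4 EpiLC markers summed to 1032 in EpiLC with CHIR and PD and 2482 in EpiLC with CHIR, with 2 of the 4 at least 2-fold lower. Of 3 neuroectoderm markers, summing to 1656 in EpiLC with CHIR and PD and 705 in EpiLC with CHIR, 1 was at least 2-fold higher, Sox1 (885 in EpiLC with CHIR and PD, 43.2 in EpiLC with CHIR), while Nes differed by 0.26 and Pax6 by -0.08. Of 6 fibroblast (feeder) markers, summing to 1595 in EpiLC with CHIR and PD and 819 in EpiLC with CHIR, 2 were at least 2-fold higher, Acta2 (845 in EpiLC with CHIR and PD, 253 in EpiLC with CHIR) and Col1a1 (370.3 in EpiLC with CHIR and PD, 165 in EpiLC with CHIR), 2 were lower, and the median difference was 0.10. In bulk RNA, fewer cells that express a gene and less RNA of it per cell cannot be told apart, and the part of these cell types in the Dkk1, Nkd1 and Notum values was not tested.

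**Figure D4:**
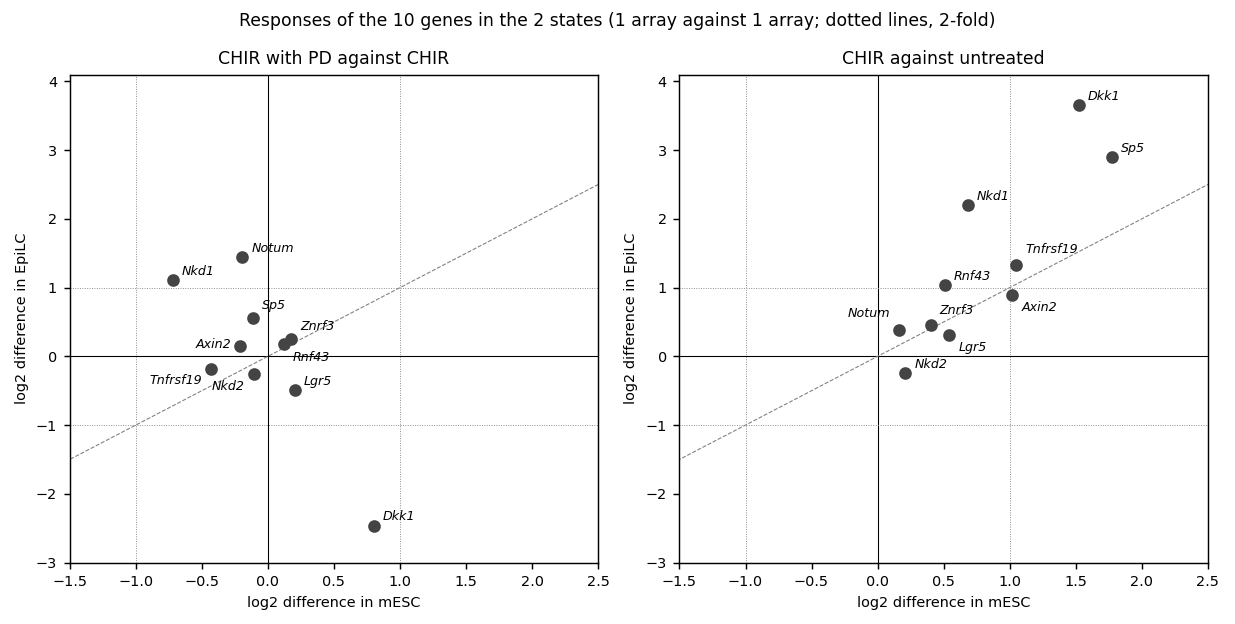
Log2 difference in EpiLC (vertical) against that in mESC (horizontal) for the 10 genes, for CHIR with PD against CHIR (left) and CHIR against untreated (right), 1 array against 1 array. Dotted lines mark 2-fold and the dashed line equal responses. With CHIR, Dkk1, Sp5 and Nkd1 lie farthest above the dashed line (3.65, 2.90 and 2.20 in EpiLC), and with PD added Dkk1 lies at -2.46 in EpiLC and 0.80 in mESC.

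With both inhibitors against untreated cells, 7 of the 10 genes were at least 2-fold higher in EpiLC (2.62% of all genes) and 2 of the 10 in mESC (0.618% of all genes), and none was 2-fold lower (1.49% of all genes in EpiLC, 0.848% in mESC). The 7 in EpiLC were Sp5 (3.45), Nkd1 (3.31), Notum (1.82), Rnf43 (1.21), Dkk1 (1.19), Tnfrsf19 (1.14) and Axin2 (1.05), and the 2 in mESC were Dkk1 (2.33) and Sp5 (1.66). The Notum value in EpiLC rests on probe 17273260 (3.39), as probe 17259443 differed by 0.25. Axin2 probe 17257801 passed 2-fold in both states (1.29 in EpiLC, 1.19 in mESC) and probe 17271197 in neither (0.81 in EpiLC, 0.44 in mESC). Znrf3 differed by 0.71 in EpiLC and 0.58 in mESC, Nkd2 by -0.50 in EpiLC and 0.10 in mESC, and Lgr5 by -0.18 in EpiLC and 0.75 in mESC. The mESC value of Lgr5 rests on probe 17245059 (1.51), as probe 17237400 differed by -0.022. In mESC, Axin2 (0.81), Rnf43 (0.63) and Tnfrsf19 (0.62) were higher, while Nkd1 (-0.037) and Notum (-0.031) did not depart from 0 in a stable direction, since their sign turned when arrays were centred on their medians. Opposite signs in the 2 states were seen for 4 of the 10 genes, Nkd1, Nkd2, Notum and Lgr5, and for 42.7% of all genes. This comparison shares its untreated arrays with that of CHIR alone.

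In the limma fit of CHIR with PD against untreated, 0 of the 10 genes passed the adjusted p of 0.05, where 0.0271% of all genes passed, all of them lower. At an unadjusted p under 0.05, 6 of the 10 were higher, against 7.46% of all genes (14.3% in both directions). They were Axin2 (0.93, SE 0.14) and Sp5 (2.56, SE 0.40), both with a limma adjusted p of 0.115, Tnfrsf19 (0.88, SE 0.16), Znrf3 (0.64, SE 0.12) and Rnf43 (0.92, SE 0.18), with limma adjusted p-values of 0.151 to 0.162, and Dkk1 (1.76, SE 0.70, limma adjusted p = 0.347). Without the mESC array with CHIR and PD, Sp5 stood at 3.17 and the mean of the 2 Notum probes at 1.77. The treated arm is again 1 array that is assumed to vary like the other groups.

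EpiLC differed from mESC across the 3 treatments in 2 of the 10 genes, where 8.3% of all genes passed the same limma test and 4.15% were higher. Tnfrsf19 rose in EpiLC by 1.04 (log2, SE 0.13, limma adjusted p = 0.0111) and Nkd2 rose by 0.83 (log2, SE 0.15, limma adjusted p = 0.0273), each higher in EpiLC in 3 of 3 treatment pairs. The Nkd2 call was lost without the CHIR pair of arrays (limma adjusted p = 0.0705) and without the untreated pair (limma adjusted p = 0.0637). It was also lost when all intensities were shifted so that the lowest value was 4 in place of 16 (limma adjusted p = 0.0563). Without limma's variance moderation neither gene passed, with an adjusted p of 0.261 for Tnfrsf19 and 0.308 for Nkd2. Nkd1 had the widest estimate but also a wide error (2.32, SE 0.58, limma adjusted p = 0.0714, higher in EpiLC in 3 of 3 pairs), and it passed without the untreated pair (3.13, limma adjusted p = 0.0376). Dkk1 stood at -1.14 (SE 0.57, limma adjusted p = 0.304) and passed without the CHIR pair (-2.04, limma adjusted p = 0.0113). The CHIR pair itself ran the other way for Dkk1, at 0.65. The mean of Notum stood at -0.40 (SE 0.36) and passed without the pair with both inhibitors (-0.98, limma adjusted p = 0.0174). That pair ran the other way for Notum, at 0.76.

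Within single treatments the state differences are those of 1 array against 1 array. In untreated cells Nkd2 (1.18) was at least 2-fold higher in EpiLC than in mESC (1.47% of all genes) and Dkk1 (-1.47) and Notum (-1.09) were at least 2-fold lower (2.3% of all genes). With CHIR, Nkd1 (2.21) and Tnfrsf19 (1.05) were at least 2-fold higher (2.45% of all genes) and 0 of the 10 were 2-fold lower (2.63% of all genes). With both inhibitors, Nkd1 (4.05), Tnfrsf19 (1.29) and Sp5 (1.15) were at least 2-fold higher (3.29% of all genes) and Dkk1 (-2.61) was at least 2-fold lower (3.11% of all genes). The untreated Notum difference rests on probe 17273260 (-2.28), as probe 17259443 differed by 0.093. Axin2 (-0.14, -0.27 and 0.10 untreated, with CHIR and with both inhibitors) and Znrf3 (0.04, 0.10 and 0.18 untreated, with CHIR and with both inhibitors) stayed close between the states.

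Set against each other, the responses of the states differed by at least 2-fold for several of the 10 genes, with no test, since the 4 arrays of such a difference leave no error. The CHIR response was larger in EpiLC than in mESC by 2.13 for Dkk1, 1.51 for Nkd1 and 1.12 for Sp5 (1.44% of all genes were at least 2-fold more in EpiLC and 0.938% at least 2-fold less). That of Axin2 differed by -0.12 and that of Znrf3 by 0.06. The response to PD on top of CHIR was larger in EpiLC by 1.83 for Nkd1 and 1.63 for Notum (1.44% of all genes) and lower by at least 2-fold for Dkk1 (-3.27, where 1.12% of all genes were at least 2-fold less). The response to both inhibitors was larger in EpiLC for Nkd1 (3.34), Notum (1.85) and Sp5 (1.78), beside 2.32% of all genes, and smaller for Dkk1 (-1.14), beside 1.52% of all genes. The Notum value of 1.85 rests on probe 17273260 (3.34), as probe 17259443 gave 0.36.

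Other genes of the pathway were read from lists of its components. Of 9 measured genes of beta-catenin and its destruction complex, 0 were 2-fold apart in any pair of arrays compared, and Ctnnb1, the beta-catenin gene, differed by 0.14 with CHIR in mESC. For CHIR against untreated in EpiLC, of 13 measured other target genes 4 were at least 2-fold higher and 1 was lower, with a median of 0.21, and in mESC 2 of 13 were higher and 0 lower, with a median of 0.50. Cdx1, a caudal homeobox gene, differed by 2.91 in EpiLC and 3.17 in mESC, and its relative Cdx2 by 2.16 in EpiLC and 1.30 in mESC. Sp8, the related Sp-family factor, differed by 2.24 in EpiLC, and Myc stood at -1.38 there.

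In the limma fits of treatment 0 of these 13 targets passed, and T, Tcf7 and Msx1 were not analysed here. With PD added to CHIR, 3 of the 13 targets in EpiLC and 4 of the 13 in mESC were at least 2-fold lower, and 1 in EpiLC was at least 2-fold higher. Lef1, a DNA-binding partner of beta-catenin, differed by -1.05 in EpiLC and -1.98 in mESC. Its fitted value for CHIR with PD against CHIR was -1.51 (SE 0.23, limma adjusted p = 0.444). The median of these targets was -0.24 in EpiLC and -0.41 in mESC, beside 0.16 in EpiLC and -0.11 in mESC for Axin2 and the other 9 genes.

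Among 18 other extracellular modulators, 2 were at least 2-fold higher with CHIR than untreated in EpiLC, the R-spondin Rspo3 (3.95) and the secreted Frizzled-related protein gene Frzb (3.59), and 1 in mESC, again Rspo3 (1.03). With PD added these stood at -2.23 for Rspo3 and -3.23 for Frzb in EpiLC, while Rspo1 stood at 2.12. Of 16 receptors and co-receptors, 5 rose and 1 fell in EpiLC against mESC in the limma fit. Among them Fzd2 (1.93), Fzd6 (1.26) and Fzd3 (1.23) rose and Fzd5 fell (-1.94) (log2, SE 0.11 to 0.23, limma adjusted p of 0.00194 to 0.00909). These encode Frizzled receptors, the proteins that Znrf3 and Rnf43 remove from the surface, and Znrf3 (0.11, SE 0.10) and Rnf43 (0.06, SE 0.15) did not pass in that comparison.

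**Figure D5:**
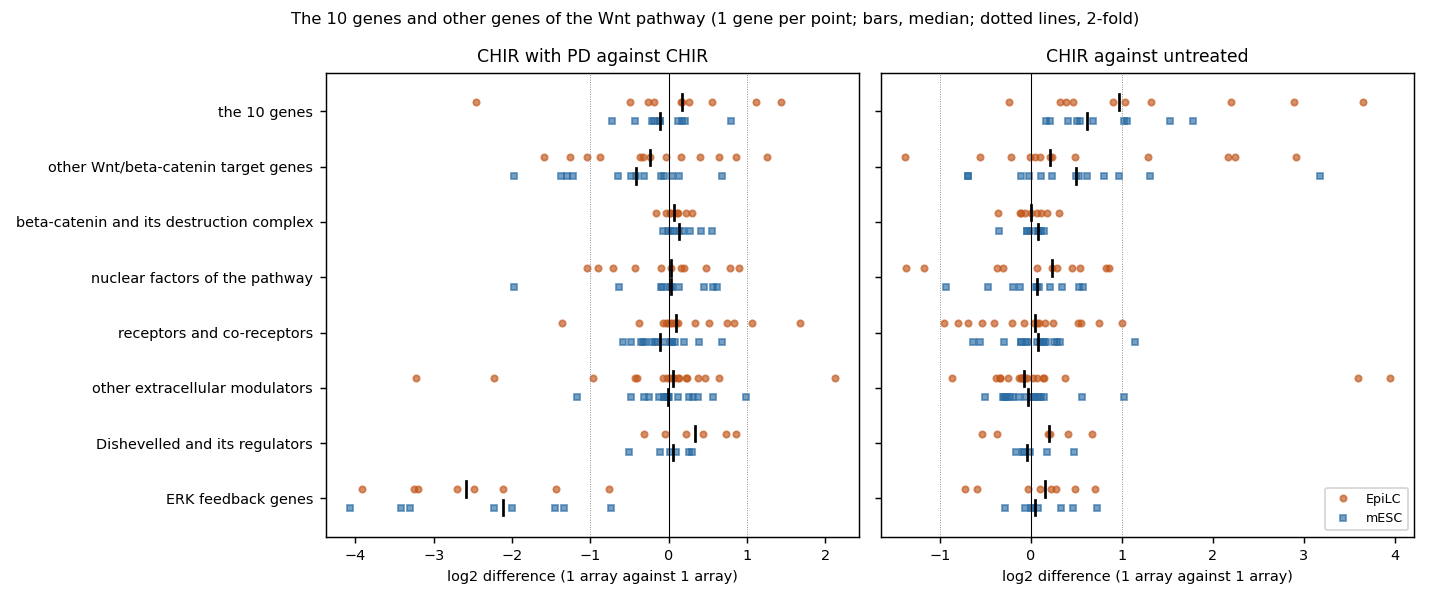
Log2 differences (1 array against 1 array) of the 10 genes and of 7 lists of pathway genes, 1 point per gene, in EpiLC and mESC, for CHIR with PD against CHIR (left) and CHIR against untreated (right). Black bars are list medians and dotted lines mark 2-fold. The 10 genes have a median of 0.97 in EpiLC and 0.61 in mESC with CHIR, and the ERK feedback genes lie at a median of -2.59 in EpiLC and -2.12 in mESC when PD is added.

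Among themselves, the closest patterns over the 6 arrays were those of Axin2 and Rnf43, whose mean-centred log2 values differed by a root mean square of 0.18, followed by Znrf3 and Rnf43 (0.19) and by Axin2 and Znrf3 (0.25). The farthest apart were Nkd1 and Dkk1 (2.13). This measure counts the size of differences as well as their direction, so genes that vary little lie close. Rnf43 and Sp5 lay 0.81 apart although their correlation over the 6 arrays (Pearson r) was 0.991, beside 0.921 for Axin2 and Rnf43. By root mean square over all genes, the nearest to Axin2 were Ctns (0.12), Mfsd1 (0.14) and Ifngr2 (0.15), and the nearest to Rnf43 were Sirt2 (0.06), Kdelr1 (0.09) and Snx1 (0.10). The nearest to Nkd1 were Foxb1 (0.30), Rtl8c (0.34) and Fgf8 (0.39). For Nkd2 they were Fgf13 (0.06), Gpm6b (0.08) and Slain1 (0.08), and for Notum Osbpl10 (0.13), Limk2 (0.20) and Vegfc (0.22). Those of Tnfrsf19 were Anxa5 (0.11), Vopp1 (0.14) and Tspan13 (0.14), and those of Sp5 were Man1c1 (0.45), Cdx1 (0.49) and Dsp (0.54). Dkk1 had no close neighbour, its nearest being Slit2 (0.71), Ntn1 (0.72) and Dmgdh (0.72). Znrf3 and Lgr5 spanned less than 2-fold over the 6 arrays and were not compared in this way.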

How the data were processed

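Total RNA of 6 cultures, 1 array per group, was labelled with the GeneChip WT PLUS kit and hybridised to Affymetrix Mouse Gene 2.0 ST arrays, and GeneSpring GX 11.5 was used, per the series' design text. The deposited values are linear intensities normalized by the authors, and the sources used here do not give the method or a genome build. All 33793 probes had values on every array. The 23521 probes with 1 gene symbol in the platform annotation were used, which leaves out 1814 with several symbols and 8458 with none. Intensities were taken to log2 with no further scaling or filter, and averaged per symbol, which gave 22180 genes.

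One model of state plus treatment was fitted with limma 3.58.1 in R 4.3.3 (lmFit, eBayes) to the log2 values derived from the deposited intensities, with 2 residual degrees of freedom, Benjamini-Hochberg adjustment over all genes and a two-sided threshold of 0.05. Pairs of arrays were otherwise compared by size, with 2-fold as the mark. The labels do not say that cultures were independent. The number of arrays limits the precision.

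The 10 genes, the pathway lists and the marker lists were chosen with earlier results of these data known. All 10 genes are named throughout, and of each list up to 4 genes with the largest absolute difference in a comparison. Genes of like pattern are the 3 nearest by root mean square difference for members spanning at least 2-fold. Gsk3a, T, Tcf7 and Msx1 were not analysed here. Promoters came from RefSeq (GRCm38.p6). Alternatives covered the log constant, scaling, probes, dim genes, moderation and the arrays in the fit.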

Additional observations from a re-analysis of the deposited data

Results flagged for a closer look

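Several of the 10 genes had differences of opposite sign in the 2 states on the arrays compared. Each value is a log2 difference of 1 array against 1 array, and the difference between the states was not tested, because it has no replicate. Over all genes, 45.6% had opposite signs for CHIR with PD against CHIR, 42.7% for CHIR with PD against untreated and 42.5% for CHIR against untreated.

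For CHIR with PD against CHIR, Dkk1 stood at -2.46 in EpiLC and 0.80 in mESC, Nkd1 at 1.11 in EpiLC and -0.72 in mESC, and Notum at 1.44 in EpiLC and -0.19 in mESC. In the same comparison Sp5 stood at 0.55 in EpiLC and -0.11 in mESC, Lgr5 at -0.49 in EpiLC and 0.20 in mESC, and Axin2 at 0.15 in EpiLC and -0.21 in mESC. For CHIR with PD against untreated, Nkd1 stood at 3.31 in EpiLC and -0.037 in mESC, Notum at 1.82 in EpiLC and -0.031 in mESC, Nkd2 at -0.50 in EpiLC and 0.10 in mESC, and Lgr5 at -0.18 in EpiLC and 0.75 in mESC. The mESC values of Nkd1 and Notum are near 0 and turned positive when arrays were centred on their medians, and Lgr5 probe 17237400 read -0.14 in EpiLC and -0.022 in mESC, so these signs are not stable. For CHIR against untreated only Nkd2 did so, at -0.24 in EpiLC and 0.21 in mESC.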

How the results depend on the processing

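Of the 10 genes, 2 passed for EpiLC against mESC. As alternatives, all intensities were shifted by a constant so that the lowest value was 4 or 64 in place of 16. These settings are called a floor of 4 and a floor of 64. The count of 2 became 1 with a floor of 4 (Nkd2 lost, limma adjusted p = 0.0563) and 0 without variance moderation (Tnfrsf19 adjusted p = 0.261, Nkd2 adjusted p = 0.308). With arrays left out it was 2 to 3, but the genes changed. Nkd2 gave way to Dkk1 without the CHIR pair and to Nkd1 without the untreated pair. For CHIR against untreated 0 to 1 of the 10 passed with arrays left out, and for CHIR with PD against untreated 0 to 2. Over all genes, EpiLC against mESC gave 1841 calls, and 1016 with a floor of 4, 0 without moderation and 945 to 1276 with arrays left out. CHIR with PD against untreated gave 6, and 1 with a floor of 4 or of 64, 0 without moderation, 53 with trend and robust moderation, and 0 to 152 with arrays left out. CHIR with PD against CHIR gave 4, and 1 with a floor of 64, 0 without moderation, 7 with trend and robust moderation and 3 to 71 with arrays left out. CHIR against untreated gave 0, and 0 to 52 with arrays left out.

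With a floor of 64, the count of the 10 genes 2-fold apart was 2 in place of 4 for CHIR in mESC, 3 in place of 7 for both inhibitors against untreated in EpiLC, 0 in place of 3 for untreated EpiLC against mESC and 1 in place of 2 for the states with CHIR. With each probe on its own, an alternative chosen after seeing the data, 4 in place of 2 genes had a probe 2-fold apart for both inhibitors against untreated in mESC, and Notum probe 17259443 turned to 0.093 for untreated EpiLC against mESC. Genes 2-fold apart in all were 598 for CHIR in EpiLC (1013 with a floor of 4, 343 with 64), 75 in mESC (300 with 4, 27 with 64), 455 for PD on CHIR in EpiLC (894 with 4, 255 with 64), 172 in mESC (425 with 4, 73 with 64), 911 for both inhibitors in EpiLC (1532 with 4, 511 with 64) and 325 in mESC (681 with 4, 157 with 64). Between the states they were 835 untreated (447 with 64), 1127 with CHIR (663 with 64) and 1418 with both inhibitors (2236 with 4, 804 with 64). A higher lowest value compresses differences of dim genes. The cause of the other shifts was not tested. No paired analysis was possible because the labels give no replicate numbers, beyond the matching of the states by treatment that the fit already contains.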
